A study of Homo sapiens with 13 samples.

Results

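The SR splicing factor genes were followed by 3' READS, a sequencing method that reads each mRNA at its poly(A) site, in human cells whose RNA polymerase II (Pol II) was either normal or slow. The genes were chosen by name from a list of 10 (SRSF1, SRSF2, SRSF3, SRSF4, SRSF5, SRSF6, SRSF7, SRSF9, SRSF10 and SRSF11), and all 10 were found among the 14575 gene names of the data. They held 268 of the 211765 3' mRNA isoforms, where an isoform is an mRNA that ends at a given nucleotide. The rule itself uses gene names and no measured value.

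The cells were HEK293 Flp-in T-REx, an embryonic kidney line, with a pcDNA5 plasmid integrated in the genome that encodes an α-amanitin resistant Rpb1, the largest subunit of Pol II. The 5 wild-type (WT) libraries came from cells with resistant but otherwise normal Rpb1, and the 4 R749H libraries from cells whose resistant Rpb1 also carried R749H, a substitution in the funnel domain that slows elongation. All cells were kept in hygromycin and blasticidin, and the labels give 2 ug/ml doxycycline for 24 hrs to switch the transgene on and then 2.5 ug/ml α-amanitin for 42 hrs to inhibit the cells' own Pol II in both groups. The study's methods give a shorter time in doxycycline before α-amanitin was added. The sample titles call the construct Avitag and the source labels call it B10. The study calls the replicates biological. Whether either line was a single clone, and what separated the replicates (cultures, passages or days), was not given in the sources used here, so p-values measure the spread between these libraries. A line difference and an effect of the substitution cannot be told apart in this design.

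SR proteins bind short enhancer sequences in exons through an RNA recognition motif and recruit the splicing machinery through a domain rich in arginine and serine. Several of their genes limit their own output, because inclusion of a poison exon, or splicing within the 3' UTR, gives an mRNA that nonsense-mediated decay (NMD) removes. SRSF3 and SRSF7 also link processing of the mRNA end to nuclear export. 3' READS counts 1 end per mRNA, so levels need no correction for mRNA length. They are given in RPM, the usual unit of reads scaled to one library size. Between genes they also depend on the site, because reads whose terminal As are encoded in the genome were discarded. Ends more than 5 kb downstream of a stop codon are not analysed, and a read at a poly(A) site does not show how the mRNA was spliced. RPM here is relative to a library's reads within 5 kb of a stop codon, corrected by a TMM factor for each library.

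The 30 nt of hg19 that end at the most used isoform of each gene with a measurable profile are shown first, because all shares given later refer to such ends. Positions are counted in nt downstream of the stop codon, sequences run 5′ to 3′ in the sense of the mRNA, and capitals mark AATAAA or its variant ATTAAA, the hexamers that the cleavage machinery recognises.
SRSF1 +4323, chr17:56078444-56078473, minus strand: ataaatagtATTAAAagatgagaaactgtt
SRSF2 +1322, chr17:74730921-74730950, minus strand: tttgtttgaaATTAAAcagattggtaacct
SRSF3 +793, chr6:36570530-36570559, plus strand: gATTAAAgttttggttacaaattgttcttt
SRSF4 +663, chr1:29474259-29474288, minus strand: aaatttgAATAAAgactatttttgcttgac
SRSF5 +209, chr14:70238358-70238387, plus strand: actaattgtATTAAAtgtcttttgataagc
SRSF6 +2539, chr20:42092213-42092242, plus strand: tttaaatctcAATAAAatacttactgaggg
SRSF7 +239, chr2:38972036-38972065, minus strand: ggcacatttaAATAAAatgtttctaactag
SRSF9 +345, chr12:120899477-120899506, minus strand: ctgtttagaaatatattttaaatgtttagt
SRSF11 +2242, chr1:70718701-70718730, plus strand: tgatttaaaAATAAAagtggtttttgttag

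Of these 9 ends, 4 had AATAAA, 4 had ATTAAA and 1 (SRSF9) had neither in the 30 nt, searched on the sense strand only. The gap from the hexamer to the last nucleotide was 14 to 17 nt except in SRSF3, where it was 23 nt. Major isoforms are those above 5% of the gene's maximal isoform in both pooled cell lines. Where that isoform had fewer than 100 scaled reads in both lines, at least 5 in each line were required instead. Among the 38 major isoforms of the SR genes, 17 (44.7%) had AATAAA and another 13 (34.2%) ATTAAA alone, beside 58.9% and 15.7% of all 31787 major isoforms. Matches are a description of these windows, and overlapping windows of neighbouring isoforms share letters. Of the 38 ends, 37 lay in a UTR of the GENCODE annotation for GRCh37, the same build as hg19, and 18 lay within 7 nt of an annotated transcript end.

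POLR2A, the gene of Rpb1, was read at 60.5, 70.4, 96.7, 70.5 and 125 RPM in WT replicates 1 to 5 and at 253, 385, 315 and 520 RPM in R749H replicates 1 to 4. All R749H libraries were above all WT libraries (log2 change 2.12, SE 0.23, limma adjusted p = 2.13e-05). The reads do not separate the cells' own mRNA from a transgene mRNA that ends at the same site, and a level does not show the allele. HEK293 markers KRT18, KRT8, VIM and INA were read in every library, NEFL was listed with no read and NEFM with 2 reads in all, and the marker lists of blood (3 genes), fibroblast (3) and liver cells (1) each summed to at most 1.60 RPM in any library.

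Libraries held 2479851 to 10135014 reads in WT and 3863468 to 6475987 in R749H. R749H replicate 3 stood apart: it listed 41033 isoforms against 73112 to 112834 in the other 8 libraries, and 6.60% of them had a single read against 30.045% to 36.2%. The values of SR genes that it moved most are given with and without it. Intervals and floors below cover counting error only, since reads of 1 PCR product are not independent molecules.

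Among the SR genes SRSF7 had by far the highest level, and most of the others were near or below 60 RPM. In WT cells the mean levels were 1086 ± 208 RPM for SRSF7, 205 ± 37.1 for SRSF9, 62.1 ± 10.2 for SRSF11, 35.0 ± 5.88 for SRSF5, 33.2 ± 17.97 for SRSF6, 29.3 ± 17.5 for SRSF3, 29.1 ± 13.5 for SRSF2, 18.4 ± 6.06 for SRSF1 and 17.5 ± 7.82 for SRSF4 (SD, n = 5). The ranges of SRSF7, SRSF9, SRSF11 and SRSF5 did not overlap in WT cells, whereas each neighbour in the order from SRSF5 down to SRSF4 overlapped the next. SRSF11 (51.3 to 78.2 RPM) did overlap SRSF6 (18.2 to 64.0 RPM) and SRSF3 (14.7 to 58.9 RPM). In R749H cells SRSF7 and SRSF9 overlapped no other SR gene, and SRSF11 overlapped SRSF5 and SRSF6. SRSF7 alone made up 71.6% ± 1.35 of the summed level of the 10 genes in WT cells (SD, n = 5) and 65.0% ± 5.23 in R749H cells (SD, n = 4). The sum was 1516 ± 293 RPM in WT and 1386 ± 60.3 RPM in R749H cells, and the ranges of 1111 to 1911 RPM and 1298 to 1429 RPM overlapped.

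**Figure D1:**
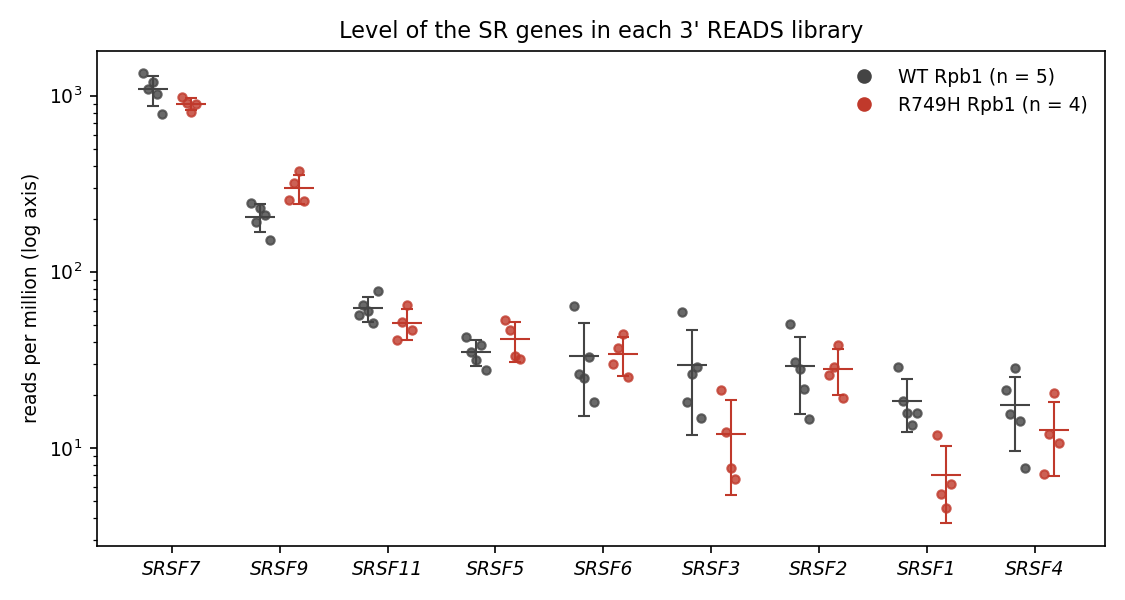
Level of the 9 SR genes with a measurable profile in each library, in RPM on a log axis, with WT libraries in grey and R749H libraries in red; points are libraries, and bars give the mean and SD (n = 5 and n = 4). The 4 R749H libraries lie below all WT libraries for SRSF1 and, with the TMM factors, above all for SRSF9. For SRSF3 the highest R749H library (21.2) overlaps the WT range (14.7 to 58.9).

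SRSF10, whose product represses splicing when it is dephosphorylated, had 1 read in all, in WT replicate 4, and was not tested. In the 8 libraries with 0 reads, 3 reads would be 0.463 to 1.21 RPM without the TMM factor, which is the limit that a count of 0 allows. The GENCODE gene ends 6795 nt downstream of the only SRSF10 stop codon among these data, and ends more than 5 kb downstream of a stop codon are not analysed here. The value therefore gives no level of SRSF10 mRNA in these cells.

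Gene levels were compared by limma on log2 RPM across all genes that passed a filter on low counts, with Benjamini-Hochberg adjustment and a threshold of 0.05. Of 9495 genes tested, 23.9% were called, 1037 (10.9%) higher and 1228 (12.9%) lower in R749H cells. Scaled to library size alone, without TMM, the calls were 460 and 2482. The median log2 change of all genes then moved from -0.07 to -0.38. Relative to genes within 5 Mb the calls were 1270 and 831. Of the 9 SR genes tested, 3 were called (33.3%), SRSF1 and SRSF3 lower and SRSF9 higher. Their median log2 change was -0.25, beside -0.07 over all genes tested.

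SRSF1 encodes the founding member of the family, which promotes exon inclusion and also enhances NMD and translation. It was read at 28.8, 18.4, 15.8, 13.4 and 15.7 RPM in WT replicates 1 to 5 and at 11.8, 5.48, 4.53 and 6.22 RPM in R749H replicates 1 to 4. Every R749H library was below every WT library, as for 10.1% of all genes tested. The level fell 2.69-fold, a log2 change of -1.43 (SE 0.30, limma adjusted p = 0.00306). These values rest on 88 to 147 reads per WT library and 17 to 68 reads per R749H library. With isoforms of a single read set to 0 in every library, the log2 change was -1.91 (limma adjusted p = 0.00479), and without R749H replicate 3 it was -1.23 (limma adjusted p = 0.00857). SRSF1 passed the threshold in all 12 alternative settings and with each library left out, with log2 changes of -1.91 to -1.23.

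SRSF3 encodes the smallest SR protein, an export adapter and splicing factor. Its level was 58.9, 18.2, 26.3, 28.8 and 14.7 RPM in the WT replicates and 21.2, 12.3, 7.72 and 6.68 RPM in the R749H replicates. R749H replicate 1 lay above WT replicates 2 and 5, so the groups overlapped. The level fell 2.40-fold, a log2 change of -1.26 (SE 0.38, limma adjusted p = 0.0228), from 84 to 316 reads per WT library and 29 to 122 per R749H library. Without R749H replicate 2, 3 or 4 the call was lost, with log2 changes of -1.31, -1.08 and -1.02 (limma adjusted p = 0.0505, 0.0590 and 0.0940). The annotation names 5 pseudogenes of SRSF3, more than of any other of the 10 genes, and how reads that match several places were assigned is not given in the sources used here.

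SRSF9 encodes a splicing factor close in sequence to SRSF1, and its level moved the other way. It was read at 247, 191, 229, 209 and 151 RPM in the WT replicates and at 256, 319, 371 and 252 RPM in the R749H replicates. With TMM, every R749H library was above every WT library, as for 9.72% of all genes tested. The gap between WT replicate 1 (247) and R749H replicate 4 (252) was small. TMM factors were 1.04 to 1.26 in WT and 0.812 to 0.972 in R749H libraries. By library size alone the groups overlapped, since WT replicate 1 (772 of 2479851 reads) lay above R749H replicate 4 (1095 of 5342960). The level rose 1.46-fold (log2 change 0.54, SE 0.18, limma adjusted p = 0.0398), from 772 to 2296 reads per library. Scaled to library size alone the log2 change was 0.23 (limma adjusted p = 0.403), which lies 0.61 above the median of all genes at that scaling. The call was also lost when libraries were thinned to the smallest (log2 change 0.48, limma adjusted p = 0.0731) and without WT replicate 2, 4 or 5 or R749H replicate 2 or 3 (log2 changes of 0.43 to 0.55, limma adjusted p = 0.0742 to 0.0971).

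The other 6 SR genes did not pass the threshold. SRSF7, an export adapter that also acts on poly(A) site choice, was at 1341, 1089, 1197, 1020 and 784 RPM in WT and at 983, 910, 809 and 899 RPM in R749H cells. Its log2 change was -0.25 (SE 0.17, limma adjusted p = 0.300), and WT replicate 5 was the lowest of all 9 libraries. SRSF11, which encodes an SR protein that contacts the splicing factor U2AF, was at 51.3 to 78.2 RPM in WT and at 41.0 to 65.0 RPM in R749H cells (log2 change -0.29, SE 0.19, limma adjusted p = 0.286). Scaled to library size alone both passed the threshold, with log2 changes of -0.57 for SRSF7 (limma adjusted p = 0.0190) and -0.60 for SRSF11 (limma adjusted p = 0.0294).

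SRSF4, a large SR protein with a long arginine and serine domain, had a log2 change of -0.45 (SE 0.35, limma adjusted p = 0.372), with 7.69 to 28.4 RPM in WT and 7.13 to 20.5 RPM in R749H cells. SRSF5, known for its response to insulin and growth signals, had a log2 change of 0.22 (SE 0.21, limma adjusted p = 0.482), with 27.6 to 42.9 and 32.0 to 53.4 RPM. SRSF6, a regulator of tau splicing, had 0.14 (SE 0.30, limma adjusted p = 0.763), with 18.2 to 64.0 and 25.1 to 44.5 RPM. SRSF2, a component of nuclear speckles, had 0.03 (SE 0.30, limma adjusted p = 0.961), with 14.5 to 50.5 and 19.1 to 38.6 RPM. The values of SRSF2, SRSF5 and SRSF6 turned negative with library size alone, and that of SRSF2 also in edgeR and DESeq2.

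Median changes differed between the chromosomes that carry SR genes, from -0.44 on chromosome 17 (SRSF1 and SRSF2) to 0.54 on chromosome 20 (SRSF6). Each SR gene was therefore set beside the tested genes within 5 Mb. Around SRSF1 the median log2 change of 41 genes was 0.04. Around SRSF3 it was 0.15 (105 genes) and around SRSF9 0.07 (73 genes). Taken relative to the mean of these neighbours in each library, the log2 changes were -1.42 for SRSF1, -1.21 for SRSF3 and 0.54 for SRSF9 (limma adjusted p = 0.00234, 0.0361 and 0.0370). Neighbours of SRSF4, by contrast, had a median of -0.42 (85 genes, 82.4% of them lower), close to the change of SRSF4 itself, and those of SRSF6 a median of 0.48 (42 genes). Relative to neighbours SRSF4 had a log2 change of 0.08 and SRSF6 of -0.22. Copy number was not measured.

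**Figure D2:**
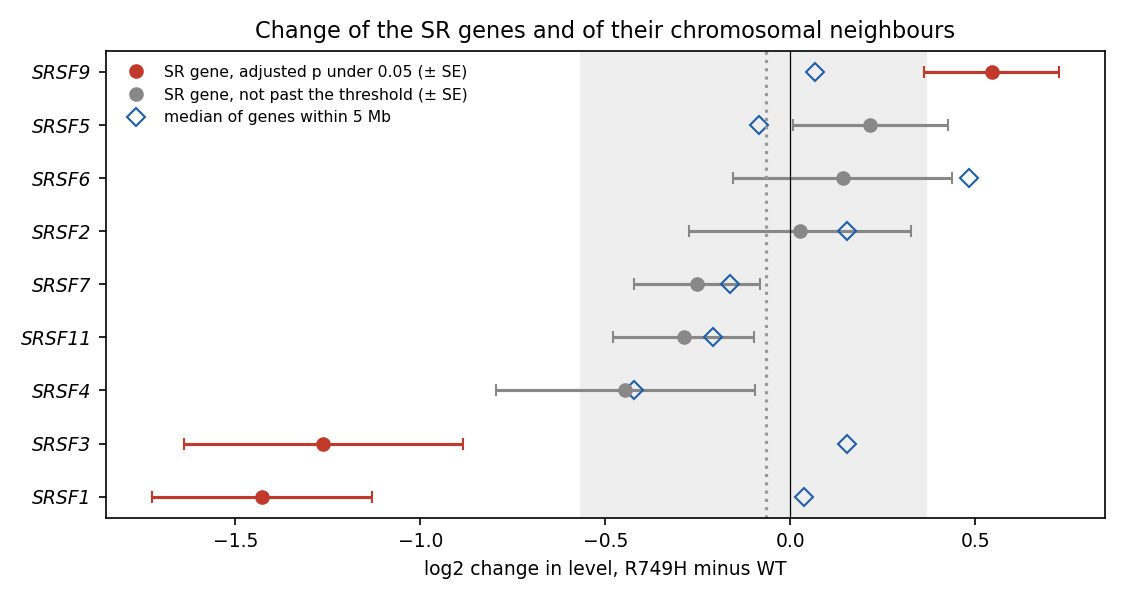
Log2 change in level, R749H minus WT, of the 9 SR genes tested, with bars of 1 SE (5 WT and 4 R749H libraries); red points passed the threshold and grey points did not, open diamonds give the median of tested genes within 5 Mb, the dotted line the median of all genes (-0.07) and the shaded band their 25th to 75th percentile (-0.56 to 0.37). SRSF1 and SRSF3 lie far to the left of the band while the diamonds beside them lie at 0.04 and 0.15.

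The second question was whether slow Pol II changed where the SR mRNAs end. The poly(A) profiles of the 9 genes were of different kinds. SRSF7 and SRSF6 had a single dominant isoform. The isoform of SRSF7 at +239 held 93.7% to 95.7% of its reads in the WT libraries and 93.3% to 94.8% in the R749H libraries. For SRSF6 the isoform at +2539 held 80.4% to 90.4% and 83.5% to 89.2%.

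SRSF4 and SRSF9 had a pair of ends a few nt apart. In SRSF4 the isoforms at +661 and +663 held 34.1% ± 5.61 and 58.8% ± 10.6 of the reads in WT cells (SD, n = 5), and 28.7% ± 7.80 and 69.0% ± 8.96 in R749H cells (SD, n = 4). In SRSF9 the isoform at +345 held 69.9% ± 1.85 and 71.7% ± 3.41, and that at +350 held 23.4% ± 2.68 and 21.9% ± 3.28. The groups overlapped in both genes, and in SRSF9, with 772 to 2296 reads per library, the means differed by less than 1 SD of either group.

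SRSF2, SRSF5 and SRSF11 used poly(A) sites far apart. SRSF2 ended at +1322 and in a cluster of 3 isoforms from +2038 to +2044, where a cluster joins major isoforms no more than 4 nt apart. The share of the +1322 end was 26.6%, 43.5%, 34.9%, 43.9% and 48.2% in the WT replicates and 41.6%, 28.6%, 27.6% and 30.1% in the R749H replicates. SRSF5 ended at +205 to +209 (60.3% ± 7.37 in WT and 51.3% ± 17.1 in R749H cells) and at +543 (24.2% ± 9.71 and 34.5% ± 17.9). The share at +543 was 60.5% in R749H replicate 3 and 20.1% to 31.8% in the other R749H libraries, whose mean was 25.9% ± 5.81 (SD, n = 3). SRSF11 ended at +1195 (28.5% ± 11.8 and 34.2% ± 8.18) and at +2240 to +2242 (64.0% ± 17.9 and 55.0% ± 10.4), and WT replicate 1 had the lowest share of the distal end, 33.3%.

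**Figure D3:**
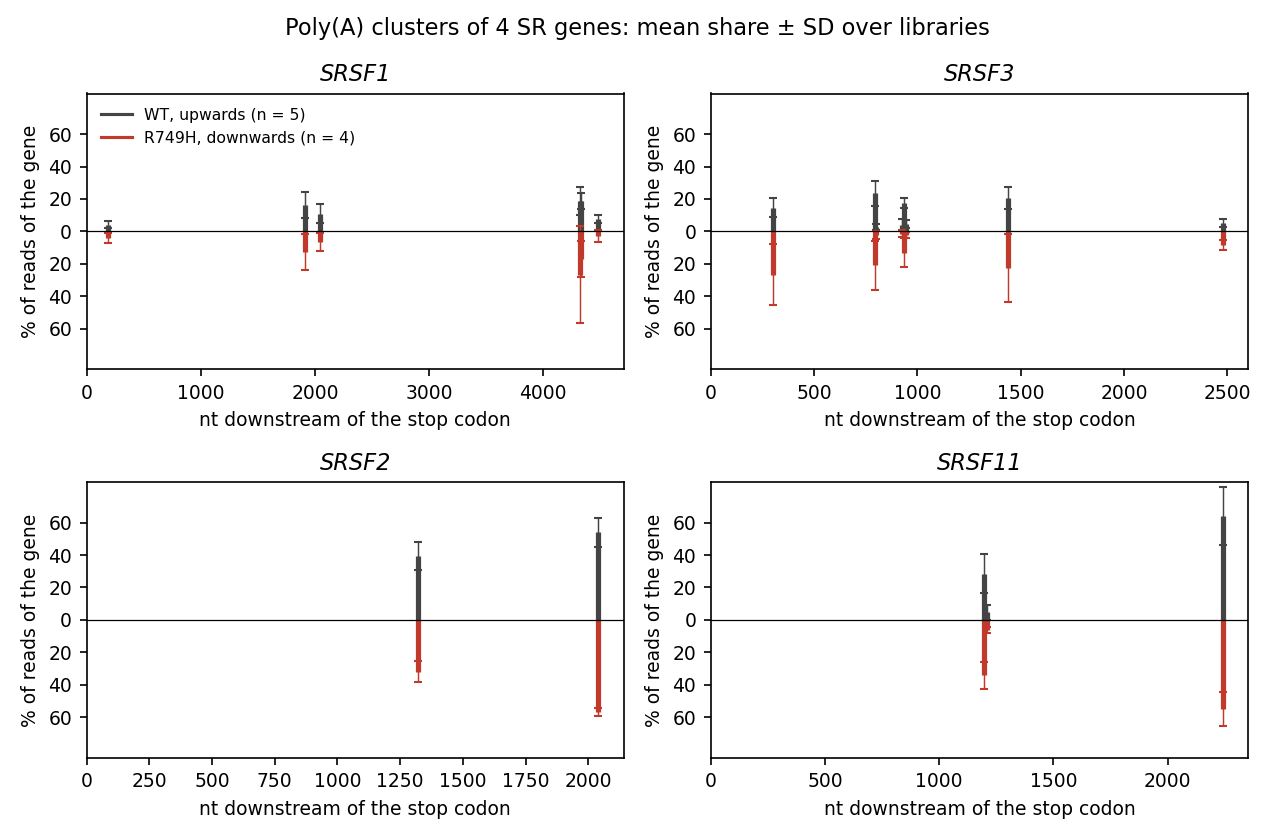
Share of a gene's reads, in percent, in each poly(A) cluster of SRSF1, SRSF3, SRSF2 and SRSF11, by distance from the stop codon in nt; WT is drawn upwards and R749H downwards, and bars give the mean and SD over 5 and 4 libraries. Only clusters of isoforms that are major in both cell lines are drawn. The SD of the R749H share of SRSF1 at +4323 (29.7) exceeds its mean (26.6).

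SRSF1 and SRSF3 had the most dispersed profiles, and both had lost reads in R749H cells. SRSF1 ended at +1912 (14.8% of all its reads), +2044 (10.2%), +4323 (19.9%), +4329 (18.01%) and, with fewer reads, at +191 and +4485, a span of 4294 nt. Reads beyond +4315, the median position, were 50.8% ± 10.9 in WT (SD, n = 5) and 49.98% ± 36.1 in R749H cells (SD, n = 4). The R749H libraries held 36.8%, 15%, 100% and 48.1% of their SRSF1 reads there. In replicate 3 all 17 reads of SRSF1 lay on 2 isoforms and in replicate 2 15 of 20 reads lay on isoforms with a single read, so these shares have little precision. SRSF3 had 13 major isoforms in 8 clusters. In WT cells the cluster with the highest mean share was +793 (23.6% ± 7.77 in WT and 21.0% ± 14.95 in R749H cells), followed by +1439 to +1442 (20.7% ± 6.81 and 22.4% ± 21.0), +932 to +939 (17.7% ± 3.01 and 13.01% ± 9.19) and the most proximal, +300 to +303 (14.6% ± 6.04 and 26.6% ± 19.0). In R749H cells the cluster at +300 to +303 had the highest mean. Its share was 18.9%, 28.9%, 6.90% and 51.7% of 122, 45, 29 and 29 SRSF3 reads in the 4 libraries, which overlapped the WT range of 8.15% to 21.8%. This cluster did not reach the minimum of 20 reads per library on average and was not tested. R749H replicate 3 had none of its 29 SRSF3 reads at +932 to +939 and 51.7% at +1439 to +1442. Without it the R749H means were 33.2% ± 16.8 at +300 to +303, 17.4% ± 3.73 at +932 to +939 and 12.6% ± 9.45 at +1439 to +1442 (SD, n = 3).

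**Figure D4:**
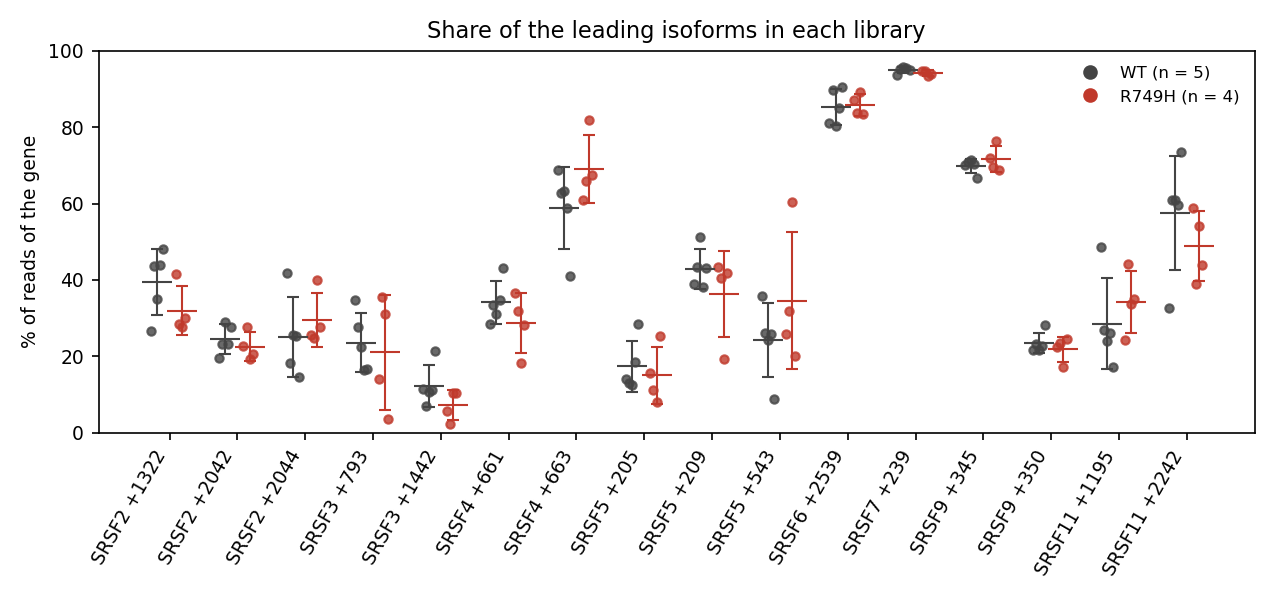
Share of a gene's reads, in percent, of each major isoform with at least 10% of the pooled reads in 8 SR genes (SRSF1 is left out), labelled by gene and nt downstream of the stop codon; points are libraries, and bars give the mean and SD over 5 WT and 4 R749H libraries. The groups overlap for all isoforms shown, and the points lie closest together for SRSF7 +239 and SRSF9 +345.

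The mean 3' end position of a gene, weighted by reads, was also compared. For SRSF1 it was +3007 ± 277 in WT (SD, n = 5) and +2867 ± 1023 in R749H cells (SD, n = 4), for SRSF3 +1011 ± 58.0 and +994 ± 229, for SRSF11 +1866 ± 189 and +1768 ± 114, and for SRSF7 +241 ± 2.87 and +240.5 ± 1.41. The libraries of the groups overlapped for all 9 genes. Without R749H replicate 3, whose mean position was +4325 for SRSF1 and +1268 for SRSF3, the R749H means were +2381 ± 391 and +903 ± 169 (SD, n = 3). The SD of SRSF1 and SRSF3 was larger among the R749H libraries, in which these genes had fewer reads.

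The shift of 3' ends was tested as the log2 odds of reads downstream of a gene's median position against reads up to it. Of 7872 genes tested, 3 were called (0.0381%) and 736 (9.35%) had an unadjusted limma p under 0.05. Of the 9 SR genes none was called and SRSF6 alone had an unadjusted limma p under 0.05. For SRSF6 the share of reads downstream of +2539 was 5.05% ± 2.82 in WT (SD, n = 5) and 1.29% ± 1.52 in R749H cells (SD, n = 4), and the groups overlapped. In R749H replicates 3 (167 SRSF6 reads) and 4 (109) no read lay downstream of +2539, so the prior count sets their values. The change in log2 odds was -2.41 (SE 0.79, limma adjusted p = 0.373) and rests on few reads. It was -0.47 with division at the midpoint of the major isoforms and -0.47 with a balanced division (limma adjusted p = 0.629 and 0.645), and no SR gene then had an unadjusted p under 0.05. The other 8 genes had changes in log2 odds of -0.13 to 0.55 with adjusted limma p of 0.654 to 0.996. For SRSF11 the value rests on almost no reads, since 0.217% ± 0.486 lay downstream of +2242 in WT (SD, n = 5) and none in R749H cells. It was -0.013 in the limma fit, -0.45 with prior count 0.1, -0.61 at the midpoint and -2.24 in edgeR. Without R749H replicate 3 the change of SRSF5 went from 0.54 to 0.024 and that of SRSF1 from 0.55 to -1.12. Without WT replicate 1, SRSF7 also had an unadjusted p under 0.05. Where 1 isoform dominated, the part downstream of the median was very small. With the balanced division, in which the median isoform was placed on the side that made the parts more equal, an alternative added after the data were seen, the SR genes had changes of -0.53 to 0.63 and none was called (lowest limma adjusted p 0.631).

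Shares of single clusters and isoforms gave no call among SR genes either. On simulated data the shift, cluster and isoform tests recovered none of the planted changes of 1 in log2 odds. The lack of a call therefore does not show that a change of this size was absent. Of 6236 clusters tested, 0.417% were called, and of the 12 clusters in 6 SR genes none, with a lowest limma adjusted p of 0.530 (SRSF7 +239) and none had an unadjusted p under 0.05, as 12.6% of all clusters did. The largest changes in log2 odds were -1.04 for SRSF3 +932 to +939 (SE 0.74) and 0.76 for SRSF5 +543 (SE 0.55). Both rest on R749H replicate 3, without which they were -0.0075 and 0.23, and in edgeR SRSF3 +932 to +939 was -0.40. Of 10913 isoforms tested, 0.101% were called, and of the 16 in 8 SR genes none, with a lowest limma adjusted p of 0.600 and no unadjusted p under 0.05, which 9.19% of all isoforms had. By edgeR's quasi-likelihood test none was called either. WT replicate 1 bears on these counts. Without it, 3 of the 12 clusters (SRSF11 +1195 and +2240 to +2242, and SRSF7 +239) had an unadjusted limma p under 0.05, as 11.3% of all clusters did, and so did 4 of the 16 isoforms (SRSF2 +1322, SRSF7 +239, SRSF11 +1195 and +2242), as 8.26% of all isoforms did. The change in log2 odds of SRSF11 +2240 to +2242 was then -1.06 in place of -0.59 (limma adjusted p = 0.256), and its WT share was 71.7% ± 6.07 (SD, n = 4). None was called. Without any other single library no SR cluster or isoform had an unadjusted p under 0.05. No isoform of SRSF1 reached the minimum of 20 reads per library on average, so none could be tested. Clusters of at least 4 isoforms, within which the study compared pairs of ends, adjacent or not, did not occur in the SR genes. The shift within clusters therefore has no value for them. The study also compared adjacent isoforms whatever their cluster.

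The R749H:wild-type ratio of adjacent major isoforms was described for all pairs, with no test because pairs of a gene share reads. Among 29 adjacent pairs in the SR genes, the downstream isoform had the lower ratio in 15 (51.7%), and the median of downstream over upstream ratio was 0.988. Over all genes it was lower in 52.1% of 21099 pairs, with a median of 0.983. Of the 11 pairs of SR isoforms 1 to 4 nt apart, 6 (54.5%) were lower downstream, beside 51.3% of such pairs over all genes. Of the 6 pairs 5 to 12 nt apart 4 were lower (66.7%, beside 52.5%), and of the 11 pairs over 50 nt apart 5 were (45.5%, beside 54.2%). The single pair 13 to 50 nt apart was not lower. In SRSF9 the ratio fell by a factor of 0.912 over the 5 nt from +345 to +350, and in SRSF4 it rose by a factor of 1.45 over the 2 nt from +661 to +663. The latter rests on 227 and 460 reads in all. R749H replicate 3 held 18.2% of its SRSF4 reads at +661, against 28.3% to 36.6% in the other R749H libraries. Without it the change in log2 odds of the SRSF4 isoform at +663 was 0.34 in place of 0.66. That of the isoform at +661 was -0.11 in place of -0.38. Without WT replicate 5 the 2 values were 0.40 and -0.24. These log2 odds therefore depend on single libraries. They weigh each library alike, whereas the factor of 1.45 comes from pooled reads and was not recomputed with a library left out.

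Genes of 3 lists were counted: regulators of SR proteins, SR-related and Tra2 proteins, and NMD factors with the exon junction complex. Among the 14 genes for kinases, phosphatase subunits and the import receptor of SR proteins, 13 were tested, 2 rose and none fell (15.4%, beside 23.9% of all genes), with a median log2 change of 0.22. The 2 that rose, named after their values were seen, were CLK1 and CLK3, kinases that phosphorylate SR proteins in the nucleus. CLK1 was at 12.8 to 19.4 RPM in WT and 18.6 to 42.2 RPM in R749H cells (log2 change 1.11, SE 0.25, limma adjusted p = 0.00506). CLK3 was at 153 to 206 and 191 to 435 RPM (log2 change 0.65, SE 0.21, limma adjusted p = 0.0314). The groups overlapped for both. CLK1 kept its call in all 12 alternatives and 9 leave-one-out fits. CLK3 lost it in 5 of the 9 leave-one-out fits (limma adjusted p up to 0.103) and with library size alone, where it was 0.34 (limma adjusted p = 0.180). SRPK1 and SRPK2, the cytoplasmic kinases, had log2 changes of -0.15 and 0.22 and did not pass.

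Of the 26 genes for SR-related and Tra2 proteins, 22 were tested, none rose and 2 fell (9.09%, beside 23.9% of all genes), with a median log2 change of -0.14. SRSF12, an SR protein that can oppose other SR proteins in splicing, fell from 42.8 ± 11.3 RPM (SD, n = 5) to 17.4 ± 6.44 RPM (SD, n = 4), a log2 change of -1.32 (SE 0.27, limma adjusted p = 0.00246), with all R749H libraries lower. LUC7L2, a partner of the U1 particle, fell from 53.2 ± 8.08 to 33.3 ± 6.89 RPM (log2 change -0.69, SE 0.20, limma adjusted p = 0.0198), also without overlap. LUC7L2 lost its call without WT replicate 4 or R749H replicate 2 (-0.67 and -0.52, limma adjusted p = 0.0507 and 0.0988). TRA2A and TRA2B, which bind exonic enhancers like SR proteins, had -0.13 and -0.21 and did not pass.

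Of the 16 genes for NMD factors and the exon junction complex, 15 were tested, 1 rose and 5 fell (40.0% called, beside 23.9% of all genes), with a median log2 change of -0.21. SMG9, a regulator of the kinase SMG1, fell from 34.5 ± 5.59 RPM (SD, n = 5) to 13.6 ± 3.51 RPM (SD, n = 4), a log2 change of -1.36 (SE 0.22, limma adjusted p = 0.000537). SMG6, the NMD endonuclease, had a log2 change of -0.83 (SE 0.19, limma adjusted p = 0.00603) that was -0.12 relative to genes within 5 Mb (limma adjusted p = 0.720). NBAS, which acts in NMD and in transport to the endoplasmic reticulum, had -0.75 (SE 0.25, limma adjusted p = 0.0406) and lost its call relative to its neighbours, where it was -0.42 (limma adjusted p = 0.268). NBAS passed the threshold in only 2 of 9 leave-one-out fits, those without WT replicate 5 or R749H replicate 3 (adjusted p up to 0.116 in the others), and missed it with no filter on low values (limma adjusted p = 0.0610) and with each library centred on its median gene (limma adjusted p = 0.0518). CASC3 and MAGOHB, of the exon junction complex, also fell, by 0.56 and 0.998 on the log2 scale, and EIF4A3, its anchoring helicase, rose by 0.68. Relative to genes within 5 Mb CASC3 was at -0.014. MAGOHB lost its call in 3 of 9 leave-one-out fits (limma adjusted p up to 0.0852). EIF4A3 lost its call in 5 of 9 and with library size alone (0.37, limma adjusted p = 0.229). UPF1, the central NMD helicase, had 0.49 (SE 0.27, limma adjusted p = 0.202).

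Over the 9 libraries, the genes whose log2 level followed the summed level of the SR genes most closely were TTL (Pearson r = 0.973), FASTK (0.960) and EXO5 (0.954), out of 3998 genes searched. The sum is mostly SRSF7, whose own r with it was 0.911, and the libraries share depth and scaling factors, so these are descriptions.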

How the data were processed

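3' READS libraries of poly(A) RNA were compared between 5 WT and 4 R749H samples. Per the study's methods, the authors removed 4 random nt and initial Ts, truncated reads to at most 77 nt, mapped them to hg19 with bowtie (the submitters' processing notes name Bowtie2 2.3.2), retained those ending in As absent from the genome, and linked each end to a CCDS stop codon within 5 kb upstream. The deposited values are a signal: read numbers at each 3' end, which the authors brought to a total of 7 M in a replicate and 25 M in a pooled table. Whole reads were recovered from the step of each library. All values (100%) were whole within 0.02 of a step, and pooled reads equalled the sums of replicates. The 10 genes and the lists were chosen with earlier results of these data known.

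Gene levels (log2 RPM, TMM, prior count 0.5) and log2 odds of parts of a gene (mean of at least 20 reads) were tested in R 4.3.3 with limma 3.58.1 with an expression trend, over all features, with Benjamini-Hochberg adjustment at 0.05. Because the values were whole reads, edgeR 4.0.16 and DESeq2 1.42.0 served as alternatives. On simulated data the level test recovered 60.5% of planted log2 changes of 1. The shift, cluster and isoform tests recovered 82%, 98.0% and 91.7% of planted changes of 2 in log2 odds, and none of 1. Level changes were planted in genes with an expected mean of at least 20 reads, at each gene's own estimated spread. Changes in log2 odds were planted only in features with many reads and with neither part small, at a fixed spread between libraries. Several SR features have fewer reads or a smaller part, so the recovery of changes in log2 odds does not hold for them. All 10 SR genes are named. From other lists, up to 3 rises and 3 falls are named where libraries of the groups did not overlap. CLK1, CLK3, CASC3, MAGOHB, EIF4A3 and the genes given as not passing were chosen after their values were seen. The 4 NET-seq samples are not analysed here.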

Additional observations from a re-analysis of the deposited data

Results flagged for a closer look

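In 58 groups of 4 or 5 libraries, the share of each SR isoform with at least 10% of the gene's reads and the level of each SR gene were searched for a library far from the others of its group, and 4 were found; chance gives about 1 in 20 groups. R749H replicate 3 held 70.6% of its SRSF1 reads at +4323, against 5% to 16.2% in the other R749H libraries, on 17 reads in all. The same library held 19.4% of its SRSF5 reads at +209, against 40.6% to 43.3% in the other R749H libraries. It also lists few isoforms with a single read, and the part of this in both shares was not tested. WT replicate 5 held 66.7% of its SRSF9 reads at +345 and 28.1% at +350, against 70.1% to 71.3% and 21.6% to 23.1% in the other WT libraries. These 2 shares are parts of 1 total and do not move independently.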

How the results depend on the processing

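Of the 3 SR genes called, SRSF1 kept its call in all 12 alternatives of scaling, filter, prior count and test and with each library left out, SRSF3 in all 12 and in 6 of 9 leave-one-out fits, and SRSF9 in 9 of 12 and in 4 of 9. Scaled to library size alone 460 genes were higher and 2482 lower, among SR genes 0 and 4. SRSF2, SRSF5 and SRSF6 then stood at -0.29, -0.10 and -0.17 (log2). SRSF2 stood at -0.032 in edgeR, -0.027 in DESeq2, -0.0067 with single reads removed and -0.031 relative to genes within 5 Mb, where SRSF4 was 0.076 and SRSF6 -0.22. With libraries thinned to the smallest 0 SR genes were higher.

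Replicate numbers did not pair the libraries (correlations of same-numbered deviations -0.07, 0.05, 0.02 and -0.05), and no group of origin is stated for them. With the replicate block on replicates 1 to 4, 0 SR genes were higher, SRSF2 was -0.20, SRSF6 -0.043 and the cluster SRSF3 +1442 0.013; 12 clusters were higher and 5 isoforms lower. LUC7L2 and MAGOHB were not called there (-0.62 and -0.98, limma adjusted p = 0.0549 and 0.0567).

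For the shift, calls were 6 lower with prior count 0.1, 5 lower with single reads removed, 6 higher in edgeR, 7 higher and 6 lower with division at the midpoint, and 3 higher with the balanced division. SRSF1 was -0.25 in edgeR. With single reads removed SRSF1 was -0.82, SRSF3 -0.076 and SRSF4 0.64. SRSF4 was 0.63 at the midpoint and 0.63 with the balanced division, where SRSF7 was -0.20. In edgeR 30 clusters were higher and 21 lower, 24 isoforms higher and 13 lower, the cluster SRSF3 +1442 was 0.079 and the isoform SRSF11 +2240 -0.22. With at least 50 reads 4 isoforms were higher and 3 lower. The cause of these changes was not tested.

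With 1 library left out, 0 to 1 SR genes were higher (0 without WT replicates 2, 4 or 5 or R749H replicates 2 or 3) and 1 to 2 lower (1 without R749H replicates 2, 3 or 4). The level change of SRSF2 ranged from -0.20 to 0.25 and of SRSF6 from -0.043 to 0.41. Shift calls ranged from 0 to 3 higher and 2 to 7 lower, with SRSF3 at -0.27 to 0.44, SRSF4 at -0.57 to 0.37, SRSF1 at -1.12 to 1.55 and SRSF11 at -0.25 to 0.15. Clusters called ranged from 3 to 27 higher and 1 to 33 lower, isoforms from 3 to 12 and 1 to 14. SRSF3 +1442 ranged from -0.98 to 0.45, SRSF9 +350 from -0.21 to 0.0061, SRSF3 +793 from -0.92 to 0.22, SRSF11 +2240 from -0.47 to 0.45 and SRSF6 +2539 from -0.11 to 0.19. Without R749H replicate 1 the clusters called rose to 27 and 33, and without R749H replicate 3 the shift of SRSF1 was -1.12. No SR gene was called for shift, cluster or isoform share in any of these fits.

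The alternative with isoforms of 1 gene name only was not run, since 0 isoforms had more than 1 gene name. Depth limits the shares of SRSF1 and SRSF3 most, with as few as 17 and 29 reads in a library.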
